A study of Mus musculus with 13 samples.

Results

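Among the 53379 gene identifiers counted in CD45- thymic cells, 54 genes of mitosis and chromosome segregation were taken by mouse symbol, and all 54 were found. All 54 also passed the filter on low counts, which left 19984 genes in the tests. The cells were sorted from the thymus as the fraction without CD45, the marker of hematopoietic cells, to hold the stroma, that is fibroblasts (FBs), endothelial cells (ECs) and thymic epithelial cells (TECs). All mice were wild type C57BL/6 of 2 months of age, either at steady state (4 libraries) or 1, 4 or 7 days after sublethal total body irradiation (TBI; 3 libraries per day). The labels describe the steady-state mice as untreated, whereas the count columns call them PBS day 1 replicate 2, PBS day 4 replicate 2, PBS day 7 replicate 1 and PBS day 7 replicate 2. Values at steady state are given in that order, and those after TBI by replicate number. The study's methods call the bulk libraries biological replicates, but the labels do not say whether a library came from 1 animal or from a pool. The p-values thus measure the spread between libraries, part of which may be technical.

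Mitosis begins when the kinase Cdk1, bound to a B-type cyclin, becomes active. Chromosomes are then condensed by condensin and topoisomerase II, captured by spindle microtubules at their kinetochores, and held until the spindle checkpoint is satisfied. The anaphase-promoting complex (APC/C) with Cdc20 then marks securin and cyclin B for destruction, sister chromatids part, and the cell divides. Most of these genes are transcribed in G2 and M phase, so in a bulk library their level follows the cells that are dividing. In the thymus the cells known to divide most are immature thymocytes, which carry CD45, while TECs, ECs and FBs also divide, in particular after damage. In such libraries fewer dividing cells and less RNA per cell cannot be told apart.

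The promoters of the genes were examined for a pair of short elements known from genes of G2 and M phase. These were the CHR element, searched as TTTGAA or TTTAAA, and the CCAAT box, searched as CCAAT, both on either strand. Each element was searched separately, and matches that share letters were not excluded. RefSeq windows of 300 bases (GRCm38.p6, 250 bases before the transcription start to 50 from it on) were at hand for 45 of the 54 genes. A CHR element was present in 37 of the 45 (82.2%), beside 30.6% of the windows of all 27025 genes. A CCAAT box was present in 32 (71.1%), beside 41.1%, and both elements were present in 30 (66.7%), beside 13.4%. The windows of Mad2l1, Melk, Ncaph, Nuf2, Nusap1 and Pttg1 held neither. The parts of 8 windows up to 150 bases before the start and outside annotated exons are shown, 5′ to 3′ on the strand of the gene, with CHR and CCAAT elements of either strand in capitals. Cdk1, Plk1, Cdc20, Top2a and Kif11 stand for genes with both elements that were high in day 7 replicates 2 and 3. Gtse1 stands for a gene with both that was high at day 1, and Cdc25b for a gene with a CCAAT box alone. Ncaph stands for a gene with neither. It was also high in day 7 replicates 2 and 3, at 81.2 and 44.5 CPM beside 6.08 to 11.6 at steady state. Whether the elements go with the levels was not tested.
Cdk1 (chr10:69352939-69353062, minus strand): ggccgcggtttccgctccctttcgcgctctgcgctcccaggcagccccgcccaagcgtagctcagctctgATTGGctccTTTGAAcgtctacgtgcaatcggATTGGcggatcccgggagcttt
Plk1 (chr7:122159402-122159434, plus strand): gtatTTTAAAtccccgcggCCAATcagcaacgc
Cdc20 (chr4:118437353-118437493, minus strand): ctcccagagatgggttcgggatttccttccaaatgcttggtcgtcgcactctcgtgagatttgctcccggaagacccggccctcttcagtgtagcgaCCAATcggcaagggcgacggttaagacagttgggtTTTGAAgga
Top2a (chr11:99024190-99024339, minus strand): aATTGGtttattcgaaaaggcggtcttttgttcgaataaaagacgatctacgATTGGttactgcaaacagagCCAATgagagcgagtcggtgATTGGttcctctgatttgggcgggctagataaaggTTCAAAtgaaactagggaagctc
Kif11 (chr19:37376232-37376381, plus strand): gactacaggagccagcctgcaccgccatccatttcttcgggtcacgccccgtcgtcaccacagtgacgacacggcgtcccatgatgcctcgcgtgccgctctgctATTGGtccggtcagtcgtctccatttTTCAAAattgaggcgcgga
Gtse1 (chr15:85859557-85859706, plus strand): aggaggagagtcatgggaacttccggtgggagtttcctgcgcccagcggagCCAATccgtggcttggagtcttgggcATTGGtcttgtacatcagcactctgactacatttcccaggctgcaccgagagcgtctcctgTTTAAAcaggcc
Cdc25b (chr2:131186798-131186947, plus strand): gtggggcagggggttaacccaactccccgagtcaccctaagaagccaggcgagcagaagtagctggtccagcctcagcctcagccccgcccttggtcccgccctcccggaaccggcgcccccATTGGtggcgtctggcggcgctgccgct
Ncaph (chr2:127133955-127134104, minus strand): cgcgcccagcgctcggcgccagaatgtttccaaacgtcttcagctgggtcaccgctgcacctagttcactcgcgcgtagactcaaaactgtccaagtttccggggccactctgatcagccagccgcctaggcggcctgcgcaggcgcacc

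The plot of motif positions shows where the matches lay in these windows. A CHR element lay between 50 bases before and 50 after the start in 33 genes, and a CCAAT box within the 150 bases before it in 31. A match is a run of letters and was not tested as a binding site. Among 77 other mitosis genes with a window 39.0% held a CHR element and 63.6% a CCAAT box, and among 34 DNA replication genes 29.4% and 55.9% did.

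**Figure D1:**
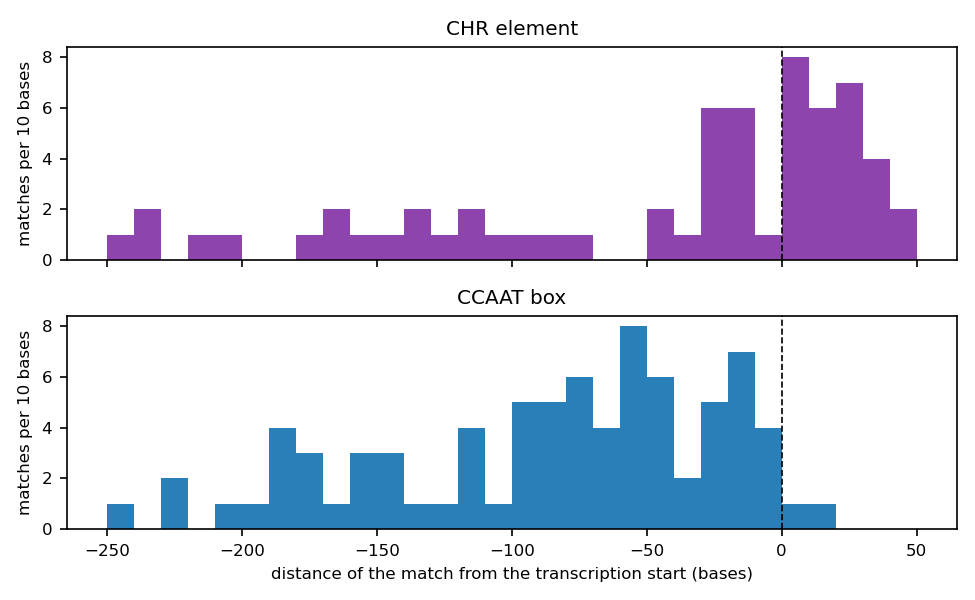
Number of matches to the CHR element (top) and the CCAAT box (bottom) per 10 bases, by distance from the RefSeq transcription start (dashed line, in bases), over the 45 genes with a promoter window. Most CHR matches lie close to the start and most CCAAT matches before it, with 33 genes holding a CHR element from 50 bases before to 50 after the start.

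Total counts ran from 15721866 (day 4 replicate 1) to 52056896 (day 4 replicate 2), and no mitosis gene fell to 3 counts or fewer in any library. The lowest was Cenpe, with 5 counts in day 4 replicate 1. Levels are given in CPM, counts scaled to a common library size after TMM normalization. Although the cells were sorted as CD45-, the 14 thymocyte markers examined were all detected in every library. Their summed level was 297 to 949 CPM at steady state, 137 to 171 at day 1, 29.5 to 47.0 at day 4, and 260, 6168 and 2644 at day 7. Markers of erythroid cells (10 genes) summed to 1587 to 3643 CPM at steady state, 293 to 980 at day 1, 5.44 to 7.87 at day 4 and 300 to 845 at day 7. Alas2 made up most of each sum, with 1510 to 3471 CPM at steady state and 233 to 624 at day 7. Of the 10 markers, 5 had a positive and 5 a negative log2 fold change at day 7 against steady state (median 0.102). The library of PBS day 4 replicate 2 stood apart in its summed FB markers, at 67850 CPM beside 6214 to 25870 in the other 3 at steady state. Most of that sum came from the collagen genes Col1a1 (26600 CPM) and Col1a2 (34530 CPM). Pdgfrb and Lum were also highest in it among the steady-state libraries. Pdgfra was lowest in it (659 CPM beside 677, 884 and 756), and Dpt (1429 CPM) was near PBS day 7 replicate 2 (1445 CPM). The 7 TEC markers were detected in all libraries. They summed to 831 to 2691 CPM at steady state, 1221 to 2296 at day 1, 2174 to 3844 at day 4 and 676 to 1313 at day 7. The EC markers summed to 582 to 984.5 CPM at steady state, 585 to 817 at day 1, 742 to 901.5 at day 4 and 649 to 975 at day 7.

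At steady state the most abundant of the mitosis genes per length were Pttg1, Bub3 and Cdc25b. Pttg1 encodes securin, which inhibits separase, and had 19.3 ± 4.12 CPM per kb of exon (SD, n = 4). Bub3, a subunit of the spindle checkpoint that is present throughout the cell cycle, had 16.7 ± 1.36, and Cdc25b, a phosphatase that activates Cdk1, had 15.8 ± 5.16. These 3 levels did not differ beyond their spread. Next was Ube2c, the ubiquitin-conjugating enzyme of the APC/C, with 9.15 ± 1.79. The lowest per length were the kinetochore protein Cenpf (0.312 ± 0.0470) and the spindle motor Kif15 (0.203 ± 0.0846). The plot of all members by library shows that Pttg1, Bub3 and, at day 1, Gtse1 went their own way, whereas the other genes formed broad bands by condition and, at day 7, by library.

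**Figure D2:**
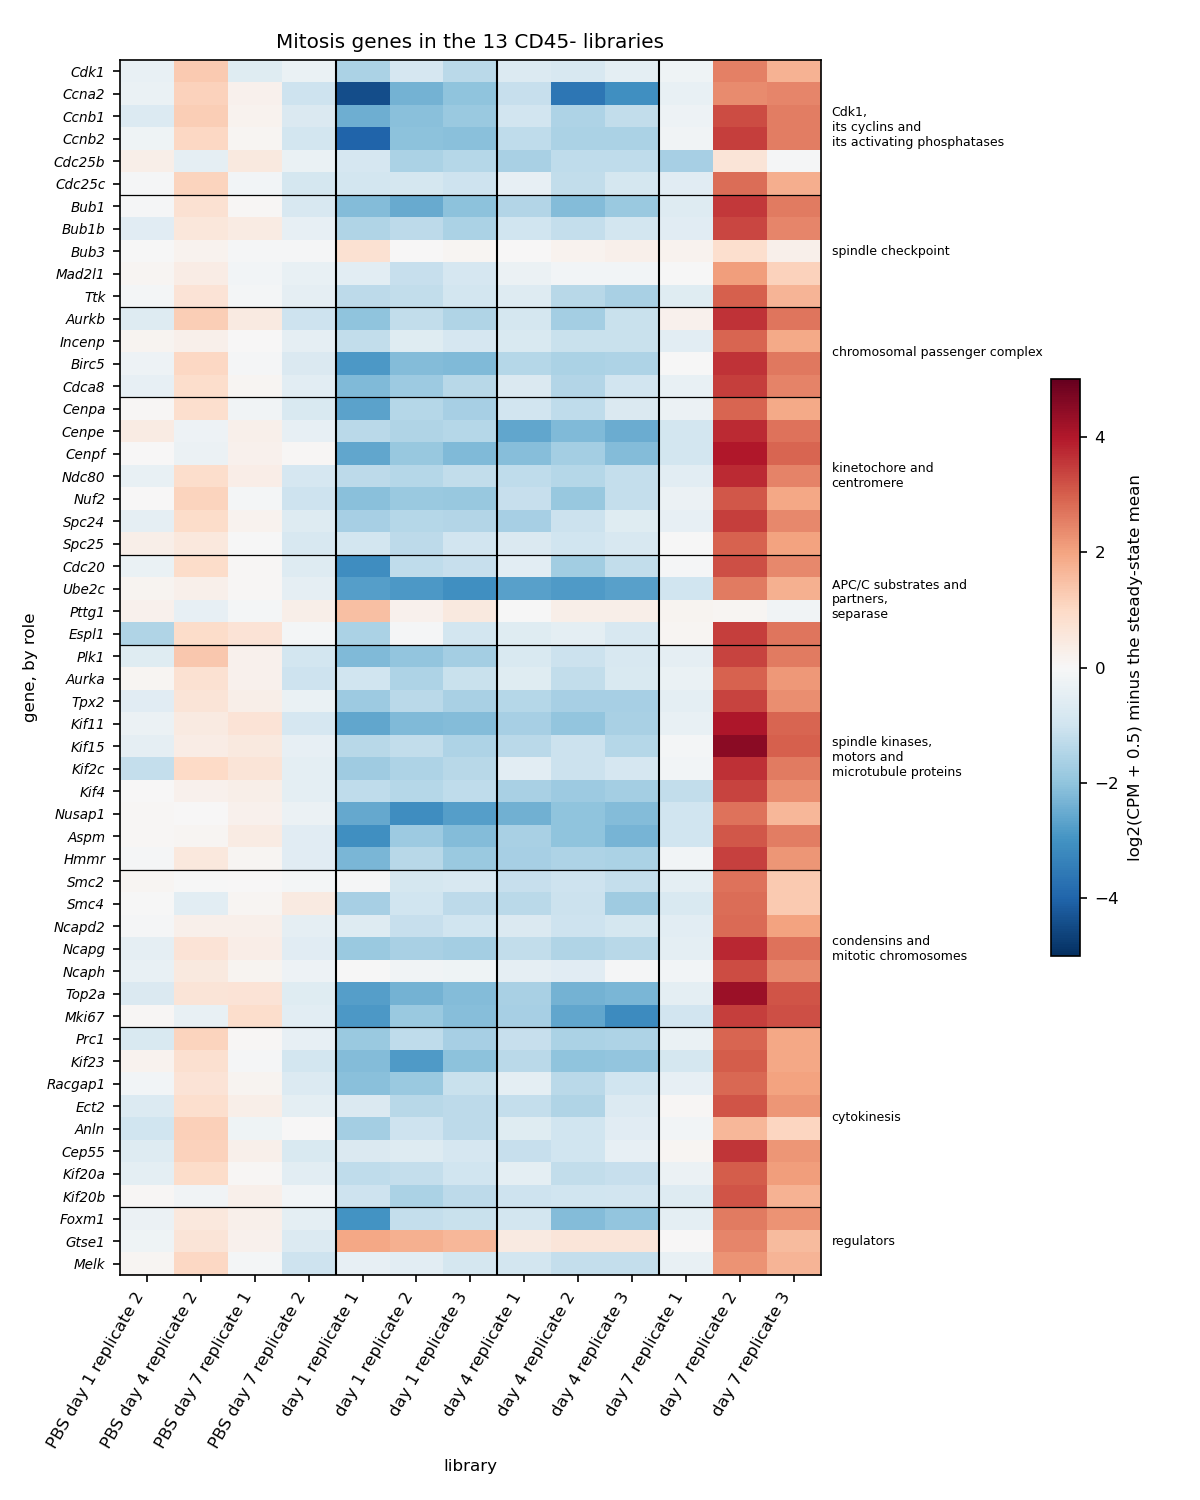
Heat map of the 54 mitosis genes (rows, grouped by role) in the 13 libraries (columns). Color gives log2(CPM + 0.5) minus the mean of the 4 steady-state libraries, red for higher and blue for lower. Days 1 and 4 are mostly blue with Gtse1 red at day 1, and day 7 replicates 2 and 3 are red while day 7 replicate 1 is near the steady-state mean.

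At day 1 nearly all mitosis genes lay lower than at steady state. Of 54 genes, 51 had a negative log2 fold change, with a median over the 54 of -1.82 beside -0.0974 over all genes tested. In 44 genes every day 1 library lay below every steady-state library, as in 8.56% of all genes. By the quasi-likelihood test of edgeR, adjusted over all genes by Benjamini-Hochberg, 3 fell and 0 rose, while 0.671% of all genes were called lower. At an unadjusted p under 0.05 in either direction there were 45, beside 17.2% of all genes. With DESeq2, 24 were called lower (2.54% of all genes) and 1 higher. All 14 thymocyte markers had a negative value too (median -2.02, 0 called), and 6 of the 10 erythroid markers fell (median over the 10 -2.69). The part of either cell type in the result was not tested.

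The 3 genes that fell at day 1 were Ube2c, Nusap1 and Birc5. Ube2c had 25.9, 27.9, 24.2 and 17.2 CPM at steady state and 2.998, 2.74 and 2.37 at day 1. Its log2 fold change was -3.14 (SE 0.837, adjusted p = 0.0142), and the groups were far apart. Of its exonic bases 22.8% also belong to Tnnc2, and reads that overlap both genes are left out of the counts by the default of the counting tool. Nusap1, a microtubule-bundling protein of the spindle, had 22.1, 21.7, 25.3 and 17.6 CPM at steady state and 3.25, 2.09 and 2.74 at day 1, a log2 fold change of -3.0 (SE 0.834, adjusted p = 0.0209). Birc5 (survivin), which places the chromosomal passenger complex on centromeres, had 6.78, 17.4, 7.83 and 4.84 CPM and then 0.707, 1.44 and 1.38. Its log2 fold change was -2.97 (SE 0.915, adjusted p = 0.0493). Neither gene's groups overlapped. When any 1 of the day 1 libraries was left out, 0 of the 54 were called, and 252 to 385 of all genes were, after 469 with all libraries. Without PBS day 7 replicate 1 there was 1 of the 54, and 280 of all genes. With each library left out in turn, the log2 fold change of Ube2c ran from -3.27 to -3.05, that of Nusap1 from -3.15 to -2.85 and that of Birc5 from -3.18 to -2.47.

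By role, the median at day 1 was most negative among the spindle genes and least negative among the 3 regulators Foxm1, Gtse1 and Melk (-0.86). Over the 10 spindle kinases, motors and microtubule proteins the median log2 fold change was -2.23. The motor Kif11, which pushes the spindle poles apart, had the most negative value of all 54 (-3.21, SE 1.02, adjusted p = 0.0604). It stood at 3.73, 6.70, 7.88 and 2.47 CPM at steady state and at 0.368, 0.650 and 0.670 at day 1. Plk1, the polo kinase that drives entry into mitosis, went from 5.22, 21.2, 9.38 and 4.02 CPM to 1.39, 1.67 and 2.16 (log2 fold change -2.51, adjusted p = 0.117). Aurka, the kinase of the spindle poles, overlapped, at 3.58 to 13.8 CPM and then 3.79, 2.37 and 3.39. The 6 genes of Cdk1, its cyclins and its activating phosphatases had a median of -2.08. Among them Ccna2 (cyclin A2) showed the third most negative value (-3.07, SE 1.14, adjusted p = 0.128), with 0.368, 3.16 and 4.15 CPM at day 1 after 14.7, 41.1, 21.5 and 8.72. Ccnb1 (cyclin B1) lay at 5.90, 23.6, 11.2 and 5.76 CPM at steady state and at 1.39, 1.95 and 2.35 at day 1. Cdk1 itself had 10.3, 34.1, 8.84 and 10.7 CPM and then 4.21, 7.43 and 5.03, with no overlap and an adjusted p of 0.218.

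The 7 kinetochore and centromere genes (median -2.04) and the 4 of the chromosomal passenger complex (-2.10) lay lower at day 1 in every library than in any at steady state. Cenpa, the histone variant that marks the centromere, had 12.8, 22.2, 10.8 and 6.97 CPM and then 1.499, 4.18 and 3.48. Ndc80, the microtubule anchor of the kinetochore, had 2.30, 6.28, 4.13 and 1.55 CPM and then 0.962, 0.882 and 1.05. Aurkb, the kinase of the passenger complex, had 3.97, 15.8, 8.93 and 2.86 CPM and then 1.22, 2.42 and 1.95. In these 3 genes the groups were close at their edges, and none passed the test (adjusted p = 0.116, 0.237 and 0.170). Of the checkpoint genes, Bub1b, which holds back Cdc20, also missed the threshold, at 9.61, 21.5, 19.5 and 10.6 CPM and then 4.75, 5.53 and 4.52 (log2 fold change -1.63, adjusted p = 0.209). Cdc20, the activator of the APC/C, had 11.4, 27.1, 14.9 and 9.01 CPM and then 1.24, 5.57 and 6.16.

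Among the condensins and mitotic chromosome proteins, values at day 1 ran from -2.70 to -0.203. Top2a, the topoisomerase that untangles sister chromatids, had 14.9, 38.8, 40.0 and 15.9 CPM at steady state and 3.22, 4.37 and 5.05 at day 1 (log2 fold change -2.70, SE 0.954, adjusted p = 0.105). Mki67, which coats mitotic chromosomes and is in wide use as a marker of dividing cells, had 9.21, 6.65, 16.6 and 6.00 CPM and then 0.792, 2.09 and 1.63 (-2.69, SE 1.01, adjusted p = 0.133). In both genes the groups were far apart. The core condensin subunit Smc2 overlapped, at 16.03, 14.8, 15.3 and 14.1 CPM and then 14.6, 7.89 and 8.46, and so did Ncaph, at 6.08 to 11.6 CPM and then 7.81, 7.01 and 6.79. Ncapd2, a subunit of condensin I, had 28.1, 34.3, 34.9 and 21.2 CPM and then 18.5, 12.8 and 14.2. Of the 8 cytokinesis genes, 7 lay lower with no overlap and 0 were called. Prc1, which bundles microtubules between the parting chromosomes, had 6.80, 26.7, 12.7 and 8.86 CPM and then 2.998, 4.74 and 3.46, and Racgap1, a subunit of the centralspindlin complex of the dividing cell's midzone, had 19.6, 34.4, 23.2 and 13.2 and then 4.70, 5.57 and 9.68. Foxm1, the transcription factor of many G2 and M phase genes, had 5.18, 9.501, 7.92 and 4.46 CPM and then 0.368, 2.55 and 2.68.

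Gtse1, Pttg1 and Bub3 were the 3 genes with a positive value at day 1. Gtse1, a microtubule-binding protein that also restrains p53, stood at 6.03, 11.3, 8.16 and 4.21 CPM at steady state and at 28.3, 25.2 and 23.4 at day 1, and was the only one of the 54 with every day 1 library above every steady-state library. Its log2 fold change was 1.78 (SE 0.568), and its adjusted p of 0.0602 missed the threshold with edgeR. The adjusted p ran from 0.00428 with DESeq2 to 0.187 without day 1 replicate 1 over the alternatives, and it was 0.0366 without PBS day 4 replicate 2. At day 4 Gtse1 was at 9.62, 10.8 and 11.03 CPM, within the range of steady state, and at day 7 at 7.02, 39.7 and 22.1. Pttg1 had 44.3, 28.7, 35.2 and 46.5 CPM at steady state and 108, 44.2 and 52.9 at day 1, so that day 1 replicate 1 was far above the rest (log2 fold change 0.82, SE 0.334, adjusted p = 0.169). Bub3 had 115, 131, 111 and 112 CPM and then 199, 118 and 126 (0.34, SE 0.241, adjusted p = 0.480), again with day 1 replicate 1 the highest.

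**Figure D3:**
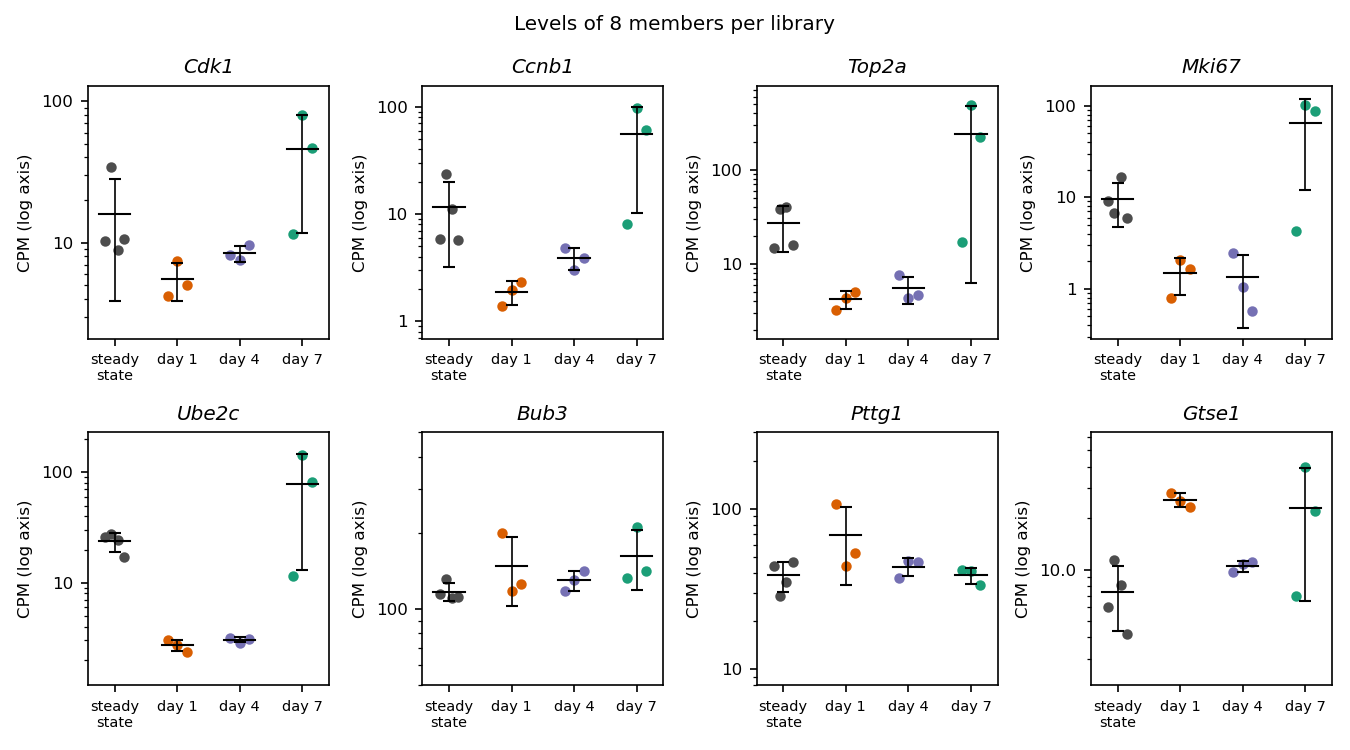
CPM (log axis) of 8 mitosis genes in each library (points) by condition, with the mean (wide bar) and SD (whiskers; n = 4 at steady state and n = 3 at each day). Cdk1, Ccnb1, Top2a, Mki67 and Ube2c are lowest at days 1 and 4 and spread widely at day 7. Bub3 lies between 111 and 211 CPM and Pttg1 between 28.7 and 108 over the 13 libraries, and Gtse1 is at 23.4 to 28.3 CPM at day 1.

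At day 4 the genes were still mostly below steady state, and 0 passed the test in either direction. The median log2 fold change was -1.46 beside -0.126 over all genes, 51 of 54 values were negative, and 33 genes lay lower with no overlap, as in 8.22% of all genes. At an unadjusted p under 0.05 there were 30, beside 13% of all genes, and DESeq2 called 8 lower, where it called 1.94% of all genes. The edgeR test called 0.24% of all genes lower. The lowest values were those of Cenpe, Ube2c and Mki67. Cenpe, the kinetochore motor that moves chromosomes to the spindle equator, stood at 5.97, 3.68, 5.29 and 3.24 CPM at steady state and at 0.323, 0.580 and 0.389 at day 4 (-3.35, SE 1.04, adjusted p = 0.122). The day 4 values of Cenpe rest on few counts. Ube2c had 3.16, 2.86 and 3.11 CPM at day 4 (-2.97, SE 0.815, adjusted p = 0.0644), and Mki67 had 2.45, 1.04 and 0.574 (-2.91, SE 1.05, adjusted p = 0.209). Both genes lay far below their levels at steady state. Among the thymocyte markers 4 of 14 fell at day 4 (median -3.80), and among the erythroid markers 7 of 10 (median -4.86), and their part in the result was not tested.

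From day 1 to day 4 no mitosis gene passed the test by edgeR or DESeq2. Of 54, 39 had a positive value and the median was 0.35 beside -0.0953 over all genes. There were 14 genes higher and 5 lower with no overlap, beside 12.6% and 13.7% of all genes, and 1 gene at an unadjusted p under 0.05, beside 13.7% of all genes. All genes tested were called higher in 0.355% and lower in 1.07%. The largest values were those of Plk1 (1.26, adjusted p = 0.507), with 4.65, 3.55 and 4.41 CPM at day 4, Ccnb2 (cyclin B2; 1.22, adjusted p = 0.566), with 4.32, 3.39 and 3.41, and Birc5 (1.13, adjusted p = 0.527), with 2.78, 2.42 and 2.52. In each of these the 3 day 4 libraries were above the 3 of day 1. The lowest were Cenpe (-1.58, adjusted p = 0.420), Gtse1 (-1.29, adjusted p = 0.258) and Smc2 (-0.65, adjusted p = 0.648), the last with 6.45, 7.03 and 6.24 CPM at day 4.

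At day 7 the 3 libraries went apart. The median over the mitosis genes was 7.35 CPM in replicate 1, 80.6 in replicate 2 and 39.2 in replicate 3, after 5.06 to 14.7 at steady state. Against steady state 0 genes passed the test, with a median log2 fold change of 2.20 beside 0.00244 over all genes, and 49 had an unadjusted p under 0.05, beside 13.5% of all genes. DESeq2 called 43 higher, where it called 1.56% of all genes higher, and the edgeR test called 0.005% of all genes higher. The thymocyte markers had a median of 2.38 in the same comparison, with 0 called and 14 at an unadjusted p under 0.05, and their part was not tested. Only Bub3 was higher in every day 7 library than in any at steady state, as 2.82% of all genes were. In replicate 2, 53 genes (all but Pttg1) exceeded every steady-state library, as did 29.4% of all genes. In replicate 3, 51 did (all but Cdc25b, Pttg1 and Anln), as did 19.4% of all genes. In replicate 1 this held for 1 gene (15.7% of all genes), while 15 lay below every steady-state library (20.1% of all genes), among them Mki67, Ube2c, Cenpe and Smc2. Without replicate 1, edgeR called 48 of the 54 higher (2.73% of all genes), and with replicate 1 as the only day 7 library the median was -0.507.

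The largest values at day 7 against steady state were those of Kif15, Top2a and Cenpf. Kif15, a motor that helps Kif11 hold the spindle bipolar, had 1.43, 2.93, 3.16 and 1.45 CPM at steady state and 1.95, 58.8 and 20.1 at day 7 (log2 fold change 3.58, SE 1.00, adjusted p = 0.117). Top2a had 17.3, 486 and 221 CPM (3.14, SE 0.948, adjusted p = 0.117), and Cenpf 2.30, 83.4 and 39.4 after 4.91, 3.83, 5.57 and 4.94 (3.11, SE 0.943, adjusted p = 0.117). Each had 1 library within or below the steady-state range and 2 far above it. Cdc25b, with 70.2, 41.0, 80.2 and 44.6 CPM at steady state, had 17.8, 88.3 and 54.2 at day 7 (-0.143, SE 0.435, adjusted p = 0.965), and Pttg1 had 41.7, 41.0 and 33.6 (0.00397, SE 0.297, adjusted p = 0.999). Bub3 had 133, 211 and 141 CPM (0.47, SE 0.249, adjusted p = 0.409).

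Between day 1 and day 7 nearly all of the genes rose. By the edgeR test 50 of 54 were higher and 0 lower, while 3.68% of all genes were called higher. The median was 4.06 beside 0.0501 over all genes. With no overlap, 48 were higher (12.7% of all genes) and 1, Pttg1, was lower (14.8% of all genes). The 4 genes not called were Cdc25b (log2 fold change 1.18, adjusted p = 0.135), Bub3 (0.129, adjusted p = 0.806), Pttg1 (-0.82, adjusted p = 0.129) and Gtse1 (-0.159, adjusted p = 0.887). All 10 spindle kinases, motors and microtubule proteins rose (median 4.79), as did all 7 kinetochore and centromere genes (4.6), all 4 of the chromosomal passenger complex (4.6), all 7 condensin and chromosome genes (3.07) and all 8 cytokinesis genes (3.73). The largest rises were those of Kif11, which had 3.61, 85.0 and 39.0 CPM at day 7 (6.24, SE 1.45, adjusted p = 0.00314), Cenpf (6.03, SE 1.44, adjusted p = 0.00435) and Top2a (5.84, SE 1.40, adjusted p = 0.00448).

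Further genes that rose from day 1 to day 7 came from each step of mitosis. Cdk1 reached 11.5, 79.9 and 46.7 CPM at day 7 (log2 fold change 3.05, adjusted p = 0.0159), Ccnb1 8.06, 97.5 and 60.1 (4.86, adjusted p = 0.00579) and Ccna2 14.3, 96.6 and 103 (4.80, adjusted p = 0.0182). Ube2c reached 11.4, 144 and 82.5 (4.87, adjusted p = 0.00176), Cdc20 13.7, 137 and 77.0 (4.14, adjusted p = 0.0113), and Birc5 8.06, 107 and 53.2 (5.57, adjusted p = 0.00273). For these 6 genes the lowest day 7 library, replicate 1, was above the highest of day 1. Plk1 reached 5.89, 88.9 and 51.2 CPM, Aurka 6.22, 65.6 and 37.2, Aurkb 7.59, 84.2 and 43.4, and Bub1b 9.599, 148 and 79.8. Ncapd2 reached 20.2, 211 and 118 CPM, Smc2 10.5, 102 and 38.0, Prc1 9.48, 93.1 and 47.2, and Foxm1 4.47, 42.0 and 32.8. All 8 passed the test, with Smc2 nearest to the threshold (2.28, SE 0.720, adjusted p = 0.0297) and with 1 day 7 library within the range of its day 1 values.

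The count of 50 moved with the libraries used. Leaving out day 1 replicate 1 left 33 genes called (472 of all genes, after 1625). Leaving out any other library of the comparison left 37 to 51 (527 to 1953 of all genes). The median stayed between 3.20 and 4.58 with each library left out. With day 7 replicate 1 as the only day 7 library the median was 1.29, in a fit that called 0 of all 22144 genes. With the tag family of the count columns as a covariate 42 were called (1416 of all genes). A tag with m0 is found only in columns of day 7, so it and the day cannot be told apart.

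Against day 4 most of the genes were higher at day 7 as well. By the edgeR test 47 genes rose and 0 fell, where 2.77% of all genes were called higher, and 48 were higher with no overlap (12.2% of all genes). The median was 3.73 beside 0.111 over all genes. Cenpe (6.19, SE 1.43, adjusted p = 0.00796), with 2.07, 64.1 and 31.7 CPM at day 7, had the largest rise, before Mki67 (5.66, SE 1.44, adjusted p = 0.0127), with 4.29, 103 and 87.6, and Cenpf (5.61, SE 1.37, adjusted p = 0.0102). The genes not called were Cdk1 (2.45, adjusted p = 0.0534), Mad2l1 (1.53, adjusted p = 0.0628), Anln (1.80, adjusted p = 0.0833), Cdc25b (1.32, adjusted p = 0.135), Gtse1 (1.13, adjusted p = 0.233), Bub3 (0.32, adjusted p = 0.536) and Pttg1 (-0.173, adjusted p = 0.813). The number called was 0 without day 4 replicate 2 or without day 4 replicate 3, in fits that called 15 and 20 of all genes, where the fit to all libraries called 779. It was 27 without day 4 replicate 1 (455 of all genes), 12 without day 7 replicate 2 (142), 23 without day 7 replicate 3 (244) and 52 without day 7 replicate 1 (1507). The median over the 54 genes stayed between 2.70 and 4.25 with each library left out. Fitted with libraries of days 4 and 7 only, 1 of the 54 and 394 of all genes were called. In both comparisons of day 7 with an earlier day all 14 thymocyte markers and 8 of 10 erythroid markers rose. The medians of these lists were 4.38 and 3.71 from day 1 and 6.25 and 5.97 from day 4. Ptprc was called higher in both comparisons too. The part of the cells with these markers in the rises was not tested.

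**Figure D4:**
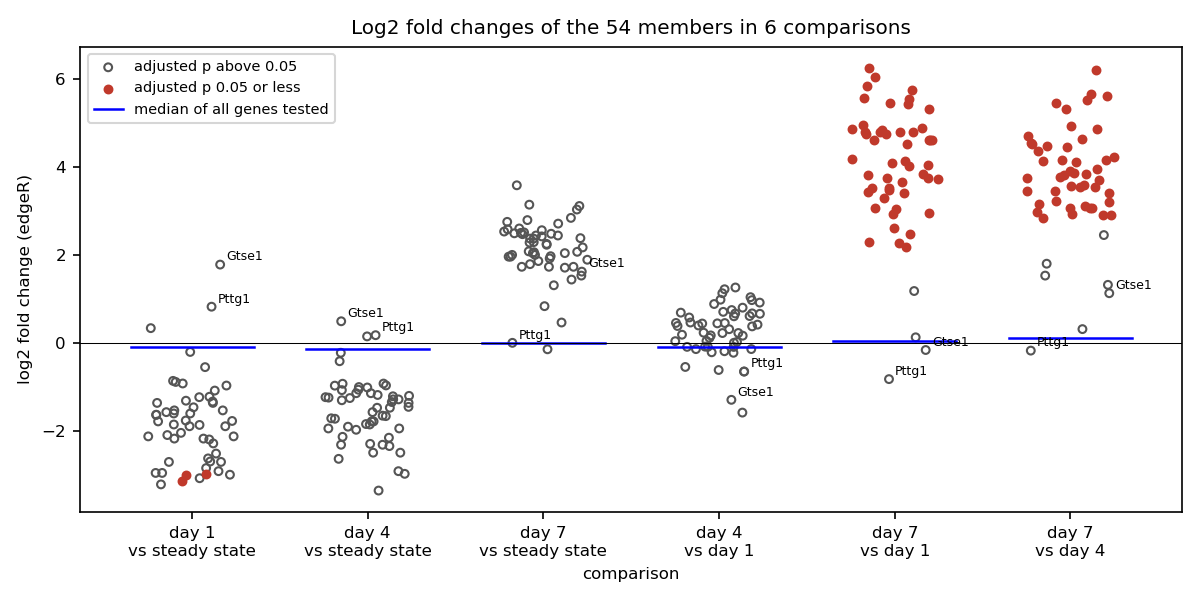
Log2 fold changes (edgeR) of the 54 mitosis genes in 6 comparisons, each point 1 gene, filled where the adjusted p is 0.05 or less, with the median of all 19984 genes as a blue line. Days 1 and 4 lie mostly below 0 against steady state with 3 and 0 genes called, and day 7 lies above days 1 and 4 with 50 and 47 genes called. Gtse1 and Pttg1 are named because they lie apart.

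The mitosis genes were set beside Rag1, a recombinase subunit of thymocytes that rearrange their antigen receptor genes, and Cd3e, a chain of the T cell receptor complex. Rag1 stood at 49.9, 36.4, 130 and 28.5 CPM at steady state, at 25.9, 23.9 and 17.7 at day 1, at 0.710, 0.316 and 1.15 at day 4, and at 19.96, 438 and 248.8 at day 7. Cd3e stood at 50.3, 17.2, 54.8 and 17.0 CPM, then at 10.1, 8.36 and 7.48, at 3.68, 3.51 and 4.42, and at 14.2, 316 and 161. Both genes were thus lowest at day 4 and highest in day 7 replicates 2 and 3, the libraries in which the mitosis genes were highest.

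The ratio of mitosis genes to Rag1 was far from constant. The median CPM of the 54 genes per 100 CPM of Rag1 was 13.3, 40.4, 6.84 and 17.8 at steady state, 5.73, 10.4 and 14.7 at day 1, 618, 975 and 309 at day 4, and 36.8, 18.4 and 15.8 at day 7. At day 4 the ratio was thus above that of every other library, since the mitosis genes stood at 3.08 to 4.39 CPM in the median while Rag1 was near 0 (11, 18 and 62 counts). Per 100 CPM of Cd3e the medians were 13.2, 85.5, 16.2 and 29.8 at steady state, 14.7, 29.7 and 34.9 at day 1, 119, 87.7 and 80.1 at day 4, and 51.7, 25.5 and 24.4 at day 7. The day 4 ratios to Cd3e were close to or above that of PBS day 4 replicate 2 and above those of all others. For Mki67 alone, the ratio to 100 CPM of Rag1 was 18.5, 18.3, 12.7 and 21.1 at steady state and 21.5, 23.4 and 35.2 at day 7, with 3.05, 8.74 and 9.22 at day 1 and 345, 328 and 50 at day 4.

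Libraries with like levels of Rag1 did not have like levels of the mitosis genes. Day 7 replicate 1, with 19.96 CPM of Rag1, lay within the range of the day 1 libraries (17.7 to 25.9), yet in it 48 of the 54 genes were above all 3 day 1 libraries, as were 26% of all genes. Its median was 7.35 CPM, where day 1 had 1.49, 2.48 and 2.61. The exceptions were Bub3, Cdc25b, Pttg1, Ncaph, Smc2 and Gtse1. Rag1 was itself an exception among the 14 thymocyte markers. The other 13 were above all 3 day 1 libraries in day 7 replicate 1, Cd3e among them (14.2 CPM against 7.48 to 10.1). The 14 markers summed to 260 CPM in this library and to 137 to 171 at day 1. The part of thymocytes in the difference was not tested.

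Within day 7 most mitosis genes differed between libraries in the same direction as Rag1 and Cd3e. From replicate 1 to replicate 2 the difference on the log2 scale had a median of 3.5 over the 54 genes, with the middle 50% of genes between 3.22 and 3.86. Rag1 and Cd3e each differed by 4.42. From replicate 1 to replicate 3 the median was 2.53, where Rag1 differed by 3.61 and Cd3e by 3.45. Both medians were below the values of Rag1 and Cd3e. From replicate 3 to replicate 2 the median was 0.948, where Rag1 differed by 0.815 and Cd3e by 0.971. From replicate 1 to replicates 2 and 3, Pttg1 went the other way (-0.0251 and -0.306), while Cenpf (4.91, to replicate 2) and Mki67 (4.20, to replicate 3) differed by more than Rag1 and Cd3e. These 3 libraries are single values and give no test.

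**Figure D5:**
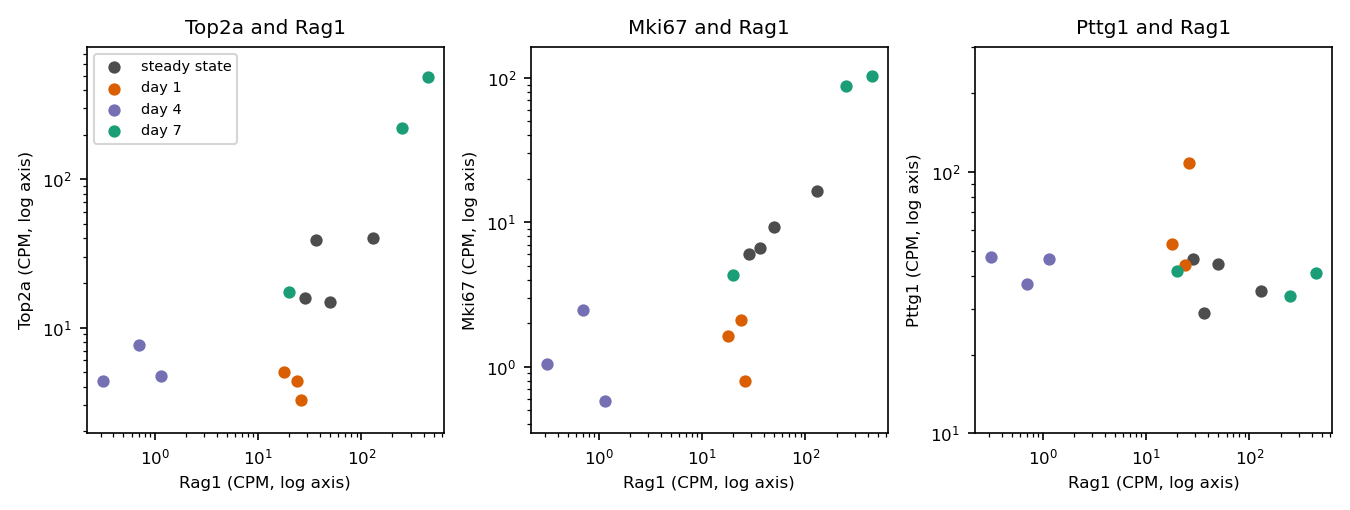
Top2a (left), Mki67 (middle) and Pttg1 (right) against Rag1, each in CPM on log axes, with 1 point per library colored by condition. At day 4 Rag1 is at 0.316 to 1.15 CPM with Top2a at 4.36 to 7.62, and day 7 replicate 1 has Rag1 near that of day 1 with more Top2a and Mki67. Pttg1 stays between 28.7 and 108 CPM over the whole range of Rag1.

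Over all 13 libraries, after the mean of each condition was removed, the mitosis genes tended to vary with Rag1, but no gene passed the test. Pearson's r of log2(CPM + 0.5) with Rag1 had a median of 0.813 over the 54 genes, from -0.0806 (Pttg1) to 0.923 (Kif11), and 53 were positive. Spearman's rho had a median of 0.591. These relations were not computed for all genes, so whether the 54 genes differ from genes at large was not tested. By exact permutation of libraries within conditions, two-sided, 13 genes had an unadjusted p under 0.05 for r and 6 for rho, and 0 of either after Benjamini-Hochberg adjustment over the 108 relations. The highest r, that of Kif11, had p = 0.0168 and an adjusted p = 0.181 in this exact permutation test, with a rho of 0.731 (p = 0.0596, adjusted p = 0.303). With Cd3e the median r was 0.786, from 0.025 (Pttg1) to 0.958 (Cdc25b), and the median rho was 0.5, with 8 and 6 genes at an unadjusted p under 0.05. For Cdc25b, r was 0.958 (exact permutation p = 0.00482, adjusted p = 0.158) and rho was 0.907 (p = 0.00849, adjusted p = 0.303). The relations rested on day 7: without replicates 1 and 2 of day 7, the libraries farthest from the median of either gene, the median r fell to 0.168 with Rag1 and to -0.0431 with Cd3e. Cdc25b kept r = 0.657 with Rag1 and 0.855 with Cd3e in those 11 libraries, whereas Cdk1 had -0.32 and -0.589.

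With the mean log2 level of the thymocyte markers as a covariate, the mitosis genes no longer passed the test between day 7 and the earlier days. Against day 1, 0 of 54 were called at day 7, with a median of 1.25, and against day 4, 0 were called with a median of -0.442. Over all genes this fit called 350 and 15, where the fit without the covariate called 1625 and 779. Against steady state the median at day 4 became 0.808, and at day 1 there were 2 genes lower and 1, Gtse1, higher (2.50, adjusted p = 0.0056). At day 7 against steady state 1 gene was called, Cdc25b, which was lower (-1.28, adjusted p = 0.0350). Thymocyte markers and day move together in these libraries, so this fit cannot separate them.

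Other genes of cell division were examined beside the 54. Of 95 further mitosis genes, 2 rose at day 1 against steady state (Psrc1 and Mad2l2) and 2 fell (Pbk and Ska1), with a median of -0.43. Of all 19984 genes 335 rose and 134 (0.671%) fell in that comparison. From day 1 to day 7, 44 rose and 1 fell (Mad2l2), with a median of 1.58, and from day 4 to day 7, 40 rose (median 1.55). Over all genes 3.68% rose from day 1 and 2.77% from day 4, and 890 of the 19984 fell from day 1. In their comparisons of day 4 and day 7 with steady state, and of day 4 with day 1, 0 passed by edgeR. At an unadjusted p under 0.05 there were 28, 64 and 4, beside 13%, 13.5% and 13.7% of all genes. Of 42 genes of DNA replication, 19 rose from day 1 to day 7 and 15 from day 4 to day 7 (medians 1.58 and 1.68). In the other 4 comparisons 0 passed. At an unadjusted p under 0.05 there were 5, 5 and 36 for days 1, 4 and 7 against steady state. Day 4 against day 1 had 1. Over all genes the shares were 17.2%, 13%, 13.5% and 13.7%, in the same order. The medians of both lists from day 1 to day 7 were lower than that of the 54 genes (4.06), which was not tested.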

How the data were processed

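The bulk RNA-seq data were counts per gene in 13 libraries. Per the labels and the study's methods, the authors used Trimmomatic 0.38 for trimming, STAR 2.7.0e for alignment to GRCm38.p5 and featureCounts 1.6.3 with default parameters for counting, and the deposited counts are whole numbers without normalization. The defaults of that tool do not use strand and leave out reads that overlap more than 1 gene, and 14 of the 54 genes share exonic bases with another gene (33.2% in Kif20a, 22.8% in Ube2c, 15.1% or less in the others). The deposited exonic length, in bases, served for levels per kb. Symbols came from GENCODE M21, which named 53274 of 53379 identifiers.

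All 13 libraries entered 1 fit of condition in edgeR 4.0.16 (R 4.3.3), with filterByExpr() by condition, TMM normalization and a quasi-likelihood test (common dispersion 0.177). Genes with a Benjamini-Hochberg adjusted p of 0.05 or less over 19984 genes were counted as changed. An SE is the size of the log2 fold change divided by the normal quantile for its p. The SDs include counting error. Correlations used log2(CPM + 0.5), condition means removed, with 5184 exact permutations (smallest p 0.000193). The edgeR fit was tested on simulated counts, for day 7 against day 1 only and with the same dispersion for all genes. The other steps were not tested in this way. No pair of libraries agreed within sampling noise. Alternatives were DESeq2 1.42.0, RLE normalization, no filter, at least 10 counts in every library, a replicate block, only the conditions compared, thymocyte score or tag family as covariate, each library left out, and, chosen after seeing the data, day 7 replicate 1 as the only day 7 library. Replicate numbers did not pair the libraries.

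The genes, lists, roles and tests were chosen with earlier results of these data known. The genes given per library were 23 taken by role, the 3 largest and 3 smallest log2 fold changes in each comparison, and Rag1 and Cd3e. Nusap1, Ncaph, Mad2l1 and Anln were named after their values were seen. Tests, tables and plots also used Python 3.11.15, numpy 2.4.6, pandas 2.3.3, scipy 1.17.1 and matplotlib 3.10.9.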

Additional observations from a re-analysis of the deposited data

Results flagged for a closer look

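At steady state, Cdk1 stood at 34.08 CPM in PBS day 4 replicate 2 and at 8.84 to 10.7 CPM in the other 3 libraries. The gap was 0.926 of the range of the 4 libraries, above Dixon's 95% critical value of 0.829. It was 1 such gene among the 54 examined, where chance gives about 1 in 20 (2.7 genes). Cdk1 was not alone in being high in this library. The median over the 54 genes was 14.7 CPM in it, beside 6.62, 8.89 and 5.06 in PBS day 1 replicate 2, PBS day 7 replicate 1 and PBS day 7 replicate 2. The genes thus shift together, and the number flagged says little about chance. The same library had the highest summed FB markers at steady state, mostly from Col1a1 and Col1a2. The part of these markers in the result was not tested.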

How the results depend on the processing

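Called genes are given with the number of all genes called in parentheses. At day 1 against steady state there were 3 (469), and 18 (555) with no filter. There were 8 (228) with only the conditions compared, 25 (1319) with DESeq2 and 0 to 3 (252 to 797) with each library left out. At day 4 against steady state there were 0 (58), and 4 (250) with no filter and 7 (146) with only the conditions compared. With DESeq2 there were 8 (634), and with each library left out 0 (19 to 97). At day 7 against steady state there were 0 (1), and 40 (627) with no filter and 43 (1075) with DESeq2. With the thymocyte score as covariate there was 1 (196), and with each library left out 0 to 48 (0 to 622). From day 1 to day 4 there were 0 (285), and 1 (258) with only the conditions compared and 2 (275) with the thymocyte score. From day 1 to day 7 there were 50 (1625), and 0 (350) with the thymocyte score and 22 (640) with the replicate block. With each library left out there were 33 to 51 (472 to 1953). From day 4 to day 7 there were 47 (779), and 1 (394) with only the conditions compared. There were 0 (15) with the thymocyte score and 0 (0) with the replicate block. With each library left out there were 0 to 52 (15 to 1507). The replicate block was possible only among the days after TBI, where same-numbered libraries did not deviate together (r from -0.843 to 0.268), so that the numbers are only names. RLE normalization moved no count by over 1.5 times. Dropping libraries or adding a term leaves fewer degrees of freedom, and otherwise the cause was not tested.

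With the thymocyte score as covariate the median of the mitosis genes turned to 0.808 at day 4 against steady state and to -0.442 from day 4 to day 7. The same covariate turned Cenpe (0.392) and Mki67 (0.909) at day 4 against steady state, Cenpe (0.411) and Smc2 (0.589) from day 1 to day 4, and Bub3 (-0.26) and Smc2 (-0.333) from day 1 to day 7. From day 4 to day 7 it turned Aurka (-0.853), Bub1b (-1.09), Bub3 (-0.287), Plk1 (-0.536), Cenpa (-0.461), Cenpe (-0.278), Cenpf (-0.873), Kif11 (-0.336), Ndc80 (-0.752), Top2a (-0.276), Mki67 (-0.599), Ncapd2 (-1.19), Smc2 (-0.922), Racgap1 (-0.69) and Gtse1 (-1.62). With day 7 replicate 1 as the only day 7 library, values turned against steady state in the median (-0.507), Cenpf (-1.02), Kif15 (-0.165) and Top2a (-0.626), from day 1 in Bub3 (-0.1) and from day 4 in Gtse1 (-0.592). Values near 0 turned as well. Pttg1 at day 7 against steady state was -0.0211 with at least 10 counts in every library, -0.024 with only the conditions compared, -0.00306 with the thymocyte score and -0.134 with the tag family, and Bub3 from day 1 to day 7 was -0.085 with the tag family. With each library left out, Cdc25b at day 7 against steady state ran from -0.677 to 0.273 and Pttg1 from -0.115 to 0.118, and from day 1 to day 7 Bub3 ran from -0.137 to 0.402 and Gtse1 from -0.855 to 0.27.

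The median correlation with Rag1 was 0.591 by Spearman's rho, 0.168 without the 2 farthest libraries and 0.306 to 0.907 with each library left out. With Cd3e it was 0.5, -0.0431 and 0.154 to 0.921, the lowest each time without day 7 replicate 1. The smallest called change among the 54 genes was 2.19 on the log2 scale (Mad2l1, day 1 to day 7), and genes with few counts, such as Cenpe at day 4, have a wide counting error.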
